A study of Mus musculus with 2 samples.

Results

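The myostatin and activin pathway was followed through 10 listed genes: the ligands Mstn, Gdf11 and Inhba, the receptors Acvr2a, Acvr2b, Acvr1b and Tgfbr1, the ligand binders Fst and Fstl3, and the signal carrier Smad3. All 10 were found by symbol among 55536 named genes. The series holds 1 group of 2 total RNA libraries of the gastrocnemius, the large calf muscle, from female B6CASTF1/J mice (first-generation offspring of a cross between C57BL/6J and CAST/EiJ) at 10 days of age. Each library started from 300 ng of RNA, was ribosome-reduced and labelled as stranded, and held ERCC spike-in RNAs. The labels number the libraries as biological replicates 1 and 2 from separate biosamples under 1 donor entry, and do not say whether each is 1 animal, so the spread between them may be partly technical. There was no treatment, mutant or second age, so levels, ratios between genes and transcript forms were described and no test between groups was possible. The libraries held 35666448 and 39650328 expected counts over named genes. All 4 myofibre markers were detected, with summed TPMs of 54855 and 63259. Replicate 1 stood apart in also holding bone and cartilage and granulocyte markers, at summed TPMs of 295 and 45.3 against 1.5 and 0.38 in replicate 2. The levels of the 10 genes are therefore given by library.

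Myostatin is a secreted protein of the TGF-beta family, made mainly by skeletal muscle, that limits muscle growth; animals lacking it have enlarged muscles. The ligands are made as precursors, are cut by furin-type proteases, and bind a type II receptor (ACVR2A or ACVR2B), which activates a type I receptor (ALK4, encoded by Acvr1b, or ALK5, encoded by Tgfbr1). The type I receptor phosphorylates SMAD2 and SMAD3, which enter the nucleus with SMAD4. Follistatin (Fst) and follistatin-like 3 (Fstl3) wrap around the ligands and block binding to the receptors.

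To see how far reads could be shared between some of the related genes, their leading transcripts in GENCODE M21 were compared. The longest run of identical bases was 14 for Acvr2a and Acvr2b, 17 for Acvr1b and Tgfbr1, 12 for Fst and Fstl3, and 23 for Smad3 and Smad2. The effective lengths in the RSEM-format tables are 99 nucleotides shorter than the transcripts, so each counted fragment was taken as longer than any of these runs. Mstn and Gdf11 were not compared, and runs with mismatches were not searched for.

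Of the 10 genes, 9 were detected, that is, stood at a TPM of 1 or more in both libraries; Fstl3 did not. The background share was 22.6% of all named genes and 52.3% of nuclear protein coding genes. TPM is a transcript abundance corrected for length and scaled to the same total in every library, so it can be compared between genes. Between the kinds of table, after scaling to nuclear protein coding genes, 0 of the 9 differed 2-fold in both libraries, where 4.76% of detected genes did. The order by mean TPM ran Mstn, Smad3, Tgfbr1, Acvr2a, Acvr1b, Fst, Acvr2b, Gdf11, Inhba and Fstl3, and was the same in the kallisto-format tables. Tgfbr1, Acvr2a, Acvr1b and Fst formed a middle group in which the values of neighbours overlapped between libraries. Every other gene stood clear of its neighbours in both libraries. Fewer cells of a type and less RNA per cell cannot be told apart in whole-muscle RNA.

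**Figure D1:**
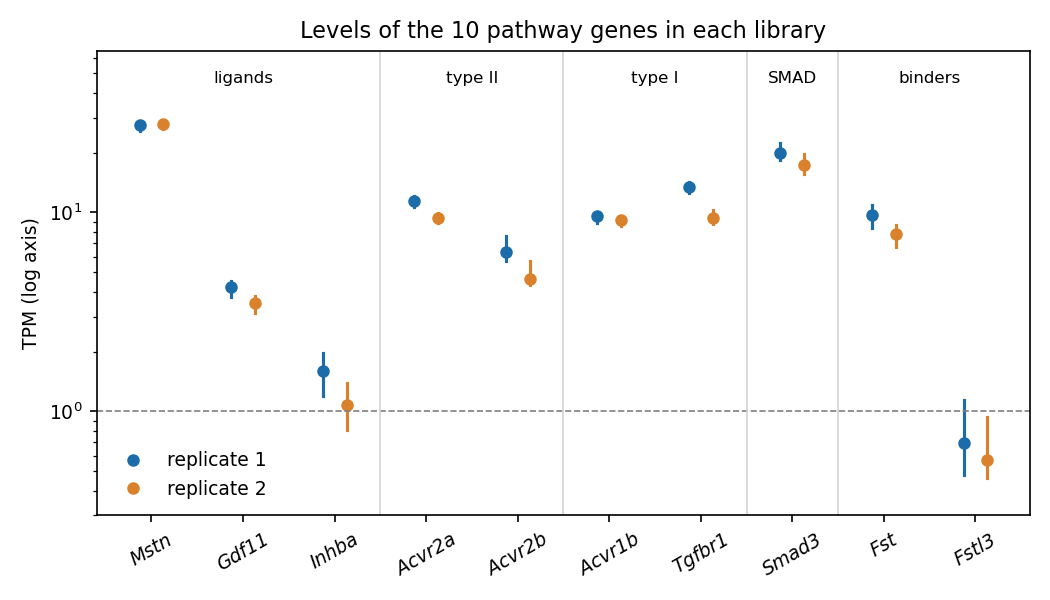
TPM (log axis) of the 10 genes in replicate 1 (blue) and replicate 2 (orange), grouped by role; points are the TPM, vertical lines the deposited lower and upper bounds, and the dashed line the detection level of 1. Mstn was highest at 27.5 and 27.8, and only Fstl3 lay below the dashed line in both libraries.

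Mstn was the most abundant of Mstn, Gdf11 and Inhba. The gene (ENSMUSG00000026100.6, mm10 chromosome 1, 53061640 to 53068079) stood at a TPM of 27.5 in replicate 1 and 27.8 in replicate 2, from 2022 and 2323 expected counts. Its mean of 27.7 ± 0.191 (SD, n = 2) lay above 81.2% of detected nuclear protein coding genes. The libraries lay close together, with deposited intervals of 25.7 to 28.1 and 26.2 to 28.4.

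Gdf11, a ligand that patterns the embryonic axis and shares the receptors of myostatin (ENSMUSG00000025352.6, chromosome 10, 128882295 to 128891718), stood at a TPM of 4.22 in replicate 1 and 3.52 in replicate 2. Inhba, which encodes the subunit of activin A (ENSMUSG00000041324.14, chromosome 13, 16011851 to 16031621), was lower, at 1.59 and 1.08, above only 1.79% of detected nuclear protein coding genes. Mstn held 82.6% of the summed TPM of these ligands in replicate 1 and 85.8% in replicate 2. The log2 ratio of Mstn over Gdf11 was 2.84 ± 0.19 and that of Mstn over Inhba 4.40 ± 0.40 (SD, n = 2), a 7.18-fold and a 21.1-fold higher level of Mstn. The differences were far larger than the spread between the libraries.

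The other ligands that act through these or related receptors covered a wide range. Tgfb3, Tgfb2 and Tgfb1, the transforming growth factors that signal through Tgfbr2 and Tgfbr1, led them at TPMs of 19.0 ± 1.94, 16 ± 1.67 and 9.38 ± 2.79 (SD, n = 2). Mstn, at 27.7, stood above Tgfb1 by a log2 ratio of 1.59 ± 0.44 and lay closer to Tgfb3 and Tgfb2. In the kallisto-format tables Tgfb2 stood at 28.1 and 27.0 and Mstn at 37.2 and 35.6. Inha, the inhibin alpha subunit that turns an activin subunit into an inhibitor, stood at 4.67 ± 0.863, above Inhba. Inhbb, the subunit of activin B, stood at 0.32 and 0.17, below Inhba by a log2 ratio of 2.49 ± 0.25. Inhbe had 0 expected counts in both libraries but 27.0 and 17.3 kallisto-format counts, so its level is uncertain. Nodal, Gdf3, Gdf15 and Inhbc had 9 or fewer counts in each library. In all, 4 of the 11 other ligands were detected. Gdf1, at TPMs of 2.35 and 0.710, is uncertain, since its kallisto-format mean was 0.000545.

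The start of the Mstn gene is shown because Mstn was the most abundant listed ligand. The window holds the 250 bases before the RefSeq start on GRCm38.p6 (chr1:53061390-53061639, plus strand). Capitals mark the E-box letters CANNTG, the motif read by the myogenic factors MyoD and myogenin; the motif reads the same on both strands.
Mstn upstream: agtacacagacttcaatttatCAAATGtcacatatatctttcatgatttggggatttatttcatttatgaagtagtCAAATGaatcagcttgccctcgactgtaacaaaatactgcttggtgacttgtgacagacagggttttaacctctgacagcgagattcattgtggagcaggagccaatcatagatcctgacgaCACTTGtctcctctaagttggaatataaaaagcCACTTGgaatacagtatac
The E-box letters occurred 4 times, starting 229, 174, 52 and 19 bases before the start, and TATAAA once, at 29 bases before it. Of 32851 windows of the same length, 66.2% held at least 1 E-box match and 3.84% held 4 or more; TATAAA on either strand was in 12.4%. Fstl3 had 3 E-box matches, Gdf11 and Acvr1b 1 each, and Inhba, Acvr2a, Acvr2b and Smad3 0; Tgfbr1 has 2 listed windows, with 0 and 1. A match is only a description of letters in this window.

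The type II receptors were both present, Acvr2a above Acvr2b. Acvr2a (ENSMUSG00000052155.5, chromosome 2, 48814109 to 48903269) stood at a TPM of 11.4 in replicate 1 and 9.37 in replicate 2. Acvr2b, the main high-affinity receptor of myostatin (ENSMUSG00000061393.14, chromosome 9, 119402118 to 119434995), stood at 6.35 and 4.63. Both values of Acvr2a lay above both values of Acvr2b, and the log2 ratio was 0.93 ± 0.12 (SD, n = 2), a 1.91-fold difference. Exons of Acvr2a overlap those of Orc4, on the opposite strand, over 446 bases; Orc4 had 469 and 527 counts against 1731 and 1679 for Acvr2a, and whether strand was used in counting is not given in the sources used here. Tgfbr2, the type II receptor of the transforming growth factors, and Bmpr2, that of the bone morphogenetic proteins, were higher than either, at 20.2 ± 2.80 and 17.2 ± 1.68. Amhr2, the receptor of anti-Müllerian hormone, stood at 1.90 ± 0.148. Acvr2b over Bmpr2 stood at a log2 ratio of -1.66 ± 0.18, and Tgfbr1 over Tgfbr2 at -0.84 ± 0.17.

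The type I receptors of myostatin were not separated by the RSEM-format TPM. Acvr1b (ENSMUSG00000000532.11, chromosome 15, 101174067 to 101213684) stood at TPMs of 9.61 and 9.20, and Tgfbr1 (ENSMUSG00000007613.15, chromosome 4, 47353222 to 47414931) at 13.5 and 9.34. Tgfbr1 was higher in replicate 1 and nearly equal in replicate 2, with log2 ratios of Acvr1b over Tgfbr1 of -0.49 and -0.02; the mean of -0.26 was smaller than its SD of 0.33. In the kallisto-format tables Tgfbr1 was higher in both libraries, at 21.8 and 15.2 against 13.0 and 11.9 for Acvr1b, with a mean log2 ratio of -0.55. Acvr1c, which encodes the related type I receptor ALK7, was below detection, at 0.24 and 0.15 from 61 and 16 counts, so that Acvr1b over Acvr1c stood at 5.63 ± 0.43. Bmpr1a, a type I receptor of the bone morphogenetic branch, was the highest receptor listed, at 42.9 ± 3.32, and of the further type I receptors it was followed by Acvr1 at 12.2 ± 2.19 and Acvrl1, an endothelial receptor, at 7.78 ± 0.403. Among co-receptors, Eng and Tgfbr3 (betaglycan, which presents inhibin and TGF-beta 2) stood at 22.7 ± 2.20 and 16.5 ± 3.32, and Tdgf1, the co-receptor of Nodal, at 0 counts in both libraries, where 3 counts would be 0.0841 and 0.0757 CPM (counts scaled to library size).

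The ligand binders differed strongly. Fst (ENSMUSG00000021765.9, chromosome 13, 114452290 to 114458951) stood at TPMs of 9.71 in replicate 1 and 7.76 in replicate 2. Fstl3 (ENSMUSG00000020325.10, chromosome 10, 79777272 to 79782630) stood at 0.690 and 0.570, from 28.0 and 34.0 counts. Fstl3 over Fst was at a log2 ratio of -3.79 ± 0.03, and Mstn lay above Fst by 1.67 ± 0.24 and above Fstl3 by 5.46 ± 0.20 (SD, n = 2). Exons of Fstl3 overlap those of Prss57, on the opposite strand, over 1157 bases, and Prss57 had 4.00 and 1.00 counts; Fst overlaps the antisense gene Gm47040 over 115 bases, with 4.00 and 2.00 counts. Wfikkn2, a myostatin-binding protein also called GASP-1, stood at 0.860 and 0.950, and its relative Wfikkn1 at 0.5 and 0.15. Both lay below the detection level in the RSEM-format tables, with Wfikkn2 over Fst at -3.26 ± 0.33. In the kallisto-format tables Wfikkn2 stood above that level, at 1.88 and 2.14, and its ratio over Fst was -2.55.

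Other genes on the list of antagonists were far more abundant. Dcn, decorin, a matrix proteoglycan that can bind myostatin and TGF-beta, stood at 243 ± 18, and Fstl1, a follistatin-like secreted protein, at 164 ± 33.0. Tcap, listed here because it can bind myostatin inside the fibre, is a Z-disc protein of muscle and stood at 258 ± 1.73. Of the 12 genes on this list, 8 were detected in the RSEM-format tables and 10 in the kallisto-format ones. The added genes were Wfikkn2 and Nog (noggin, an antagonist of bone morphogenetic proteins), the latter at TPMs of 0.89 and 0.72 in the first and 1.15 and 1.04 in the second.

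Of 6 proteases that process the ligands, 5 were detected. Furin, which cuts the ligand precursors, and Bmp1, of the family that releases the mature dimer from its latent complex, had the same mean of 28.8, but Bmp1 varied more, at 36.4 and 21.2 against 28.0 and 29.7. Pcsk6, a further proprotein convertase, stood at 21.9 ± 5.08. Tll1 stood at 1.92 and 1.85, and Tll2, which can free myostatin from latency, at 0.230 and 0.110.

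Downstream, Smad3 was the second most abundant of the 10 genes. Smad3 (ENSMUSG00000032402.12, chromosome 9, 63646767 to 63757994) stood at TPMs of 19.9 in replicate 1 and 17.4 in replicate 2. It lay above Smad2 in both libraries, at a log2 ratio of 0.70 ± 0.09, and below the shared partner Smad4 at -0.38 ± 0.08 (SD, n = 2). The second of these turned to 0.29 as a ratio of expected counts, which are not corrected for length. Smad1 and Smad5 of the bone morphogenetic branch stood at 15.2 ± 2.53 and 15.2 ± 2.41, and Smad9 at 0.25 and 0.1. Smad7, the inhibitory SMAD induced by the pathway, stood at 4.73 and 3.46, with Smad3 above it by 2.20 ± 0.18. All 8 listed inhibitors of signalling were detected, led by the SMAD phosphatase Ppm1a at 81.8 ± 0.269, the corepressor Ski at 33.1 ± 3.08 and the ubiquitin ligase Smurf2 at 11.0 ± 1.18. The coactivators Crebbp and Ep300 stood at 19.5 ± 2.17 and 15.8 ± 1.75, and Foxh1, the nodal-responsive partner of the SMADs, at 0 counts in both libraries.

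**Figure D2:**
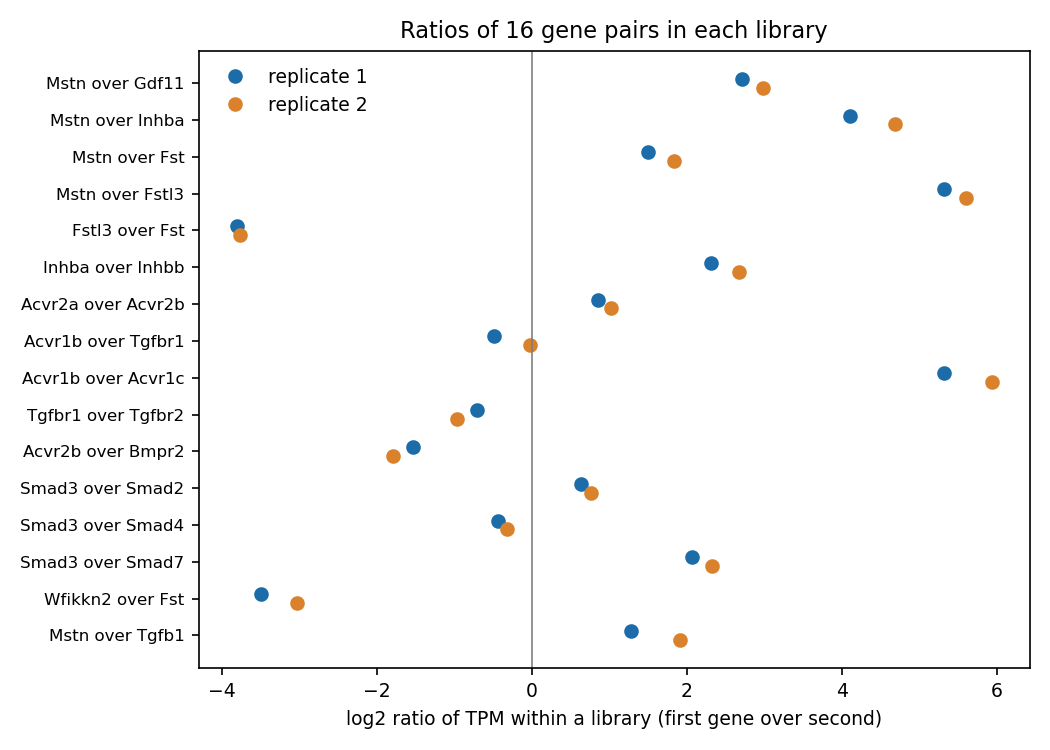
Log2 ratio of TPM, first gene over second, in replicate 1 (blue) and replicate 2 (orange) for 16 pairs. In 15 pairs the libraries had the same sign and a mean above 1 SD; Acvr1b over Tgfbr1 was the exception, at -0.49 and -0.02.

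Of the 16 pairs, 15 had the same sign in both libraries with a mean above 1 SD. The share of other gene pairs that pass this bar was not measured, so the count only describes these pairs. No p is given: a two-sided test by sign flips could not go below 0.5 here. Over the 63 other pathway genes, 46 were detected, where 52.3% of nuclear protein coding genes and 22.6% of all named genes were. The roles with members below detection were ligands, type I receptors, co-receptors, antagonists, proteases, SMADs, nuclear partners and response genes; all 3 further type II receptors and all 8 inhibitors were detected.

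**Figure D3:**
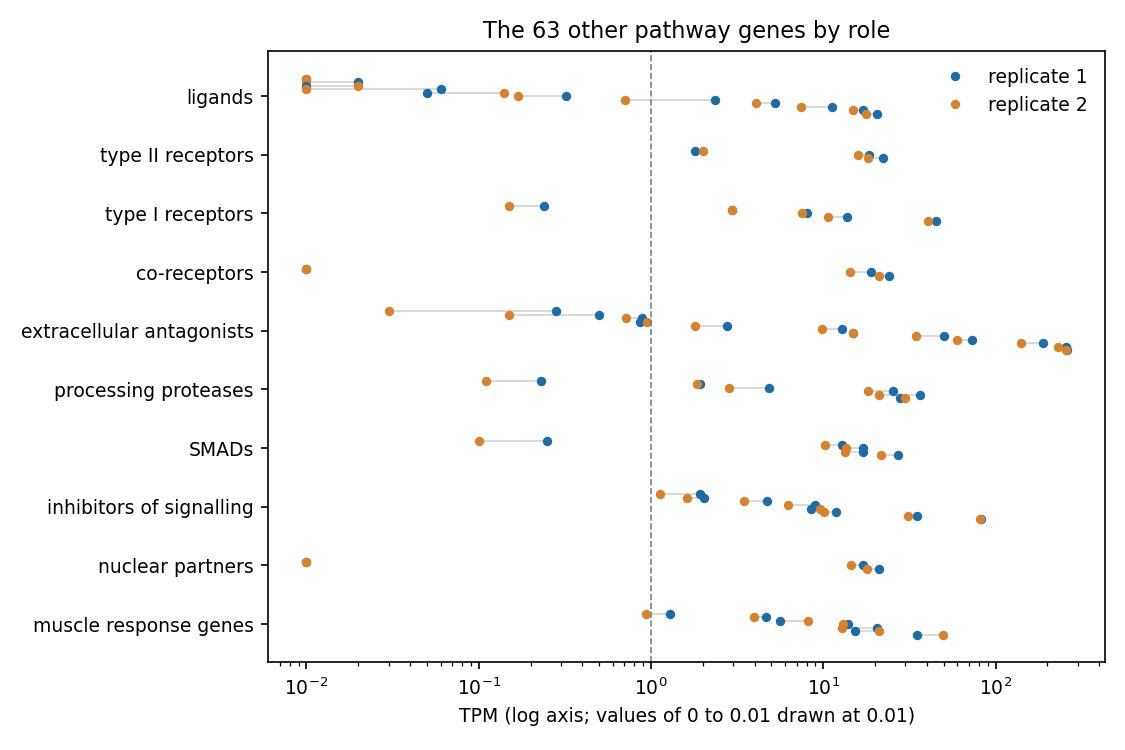
TPM (log axis, lowest values drawn at 0.01) of the 63 other pathway genes in replicate 1 (blue) and replicate 2 (orange), in rows by role, with a grey line joining the values of a gene and a dashed line at TPM 1. Dcn, Tcap and Fstl1 lie farthest right, and Inhbe, Tdgf1 and Foxh1 were at 0 expected counts.

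The transcript tables show which forms of these genes were assigned reads. The share of a transcript is its percent of the gene's TPM, and it rests on a model that divides reads shared by several transcripts. Mstn-201, with 3 exons and 376 codons, held all of Mstn in both RSEM-format libraries, and 99.4% and 99.5% in the kallisto-format ones. Gdf11 and Acvr1b have 1 annotated transcript each. Smad3-201, the full form of 425 codons, held 90.1% and 88.3%, and Acvr2a-201 95.1% of Acvr2a in replicate 1 and all of it in replicate 2. In the kallisto-format tables Smad3-201 held 82.4% and 83.4%, with Smad3-205 at 17.6% and 16.6%. Smad3-205 had only 49.9 and 46.6 kallisto-format counts against 2760 and 2689 for Smad3-201, and is annotated with 744 bases against 5090. Acvr2a-201 held 89.9% and 85.6% in the kallisto-format tables, and Acvr2a-202, annotated without a coding part, 10.1% and 14.4%. In 8 of the 10 genes 1 transcript led in both libraries and in both kinds of table, for Gdf11 and Acvr1b by construction. The share of all genes with such a lead was not measured. Among the 10, the exceptions were Fst, described below, and Inhba, where Inhba-201 held 44.7% and 58.9% and Inhba-202 55.3% and 41.1%. These 2 Inhba transcripts have the same 424 codons and differ outside them. Fstl3-201 held 42.5% of Fstl3 in replicate 1 and all of it in replicate 2, from 15.4 and 34.0 counts, while Fstl3-202 held 37.0% and 0% and Fstl3-203 20.6% and 0%. The forms of Fstl3 were thus not resolved at this depth.

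Tgfbr1 and Acvr2b have coding forms that differ by a short block. Those blocks are shown with 15 bases on either side as in the GENCODE M21 transcript (build mm10); capitals mark the optional bases. The Tgfbr1 block lies at chr4:47393247-47393258 on the plus strand, the first Acvr2b block at chr9:119428201-119428224 and the second at chr9:119428353-119428424, both on the plus strand.
Tgfbr1 12-base block: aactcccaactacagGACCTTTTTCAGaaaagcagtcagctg
Acvr2b 24-base block: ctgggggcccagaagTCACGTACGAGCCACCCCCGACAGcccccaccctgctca
Acvr2b 72-base block: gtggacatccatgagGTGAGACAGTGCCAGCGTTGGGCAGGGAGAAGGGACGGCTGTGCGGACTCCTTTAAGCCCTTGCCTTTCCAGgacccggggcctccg
The Tgfbr1 block adds 4 codons to the extracellular part of the receptor next to the membrane. Forms with it (Tgfbr1-201 and Tgfbr1-203) held 88.5% and 83.7% of the TPM of coding forms in replicates 1 and 2, and 72.2% and 82.5% in the kallisto-format tables. Tgfbr1-202 is annotated with 2861 bases against 5756 for Tgfbr1-201, and their coding parts differ by the block alone. Tgfbr1-202 was listed at 0 in all 4 tables, so the share without the block was that of Tgfbr1-205. Tgfbr1-205 has 434 codons against 503 for Tgfbr1-201 and 1829 bases, so that share also rests on reads outside the block. Reads that cross the block were not counted apart. Tgfbr1-203 moved from 66.3 counts in replicate 1 to 0.05 in replicate 2, and from 0.0550 to 1.88 in kallisto-format TPM, so its level is not resolved.

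The 24-base block of Acvr2b adds 8 codons before the membrane-spanning part, and the 72-base block adds 24 codons behind it. The forms with the 24-base block (Acvr2b-205 and Acvr2b-202) held 87.9% and 97.9% of coding TPM, and 90.6% and 98.1% by the kallisto-format tables. The form lacking the 72-base block, Acvr2b-205 with 512 codons, held 72.6% and 80.4%, and 68.6% and 71.7% by the kallisto-format tables. Most Acvr2b RNA was therefore assigned to the form with the first block and without the second, in both libraries and both kinds of table. Acvr2b-205 is annotated with 3175 bases, against 2093 for Acvr2b-202 and 1729 for Acvr2b-201. Its share thus also rests on reads outside the blocks, and both kinds of table use the same annotated transcripts. Acvr2b-201, the only coding form without the 24-base block, had 30.4 counts in replicate 1 and 4.51 in replicate 2.

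Follistatin is made in a shorter form, which stays at cell surfaces, and a longer circulating form with an acidic tail, and the choice is made at the end of the fifth exon. The last 30 bases of that exon and the first 18 of the next are shown for both transcripts, read from the minus strand. The stretch shown spans chr13:114453788-114454309 in Fst-202 and chr13:114453488-114454309 in Fst-205. Capitals mark the stop codon made by the junction in Fst-202 and the first 3 bases of the next exon in Fst-205.
Fst-202: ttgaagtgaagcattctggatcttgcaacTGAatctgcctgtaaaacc
Fst-205: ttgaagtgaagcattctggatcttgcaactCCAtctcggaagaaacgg
Fst-202, with 317 codons, had 354 and 323 counts in replicates 1 and 2, and Fst-205, with 343 codons, 83.2 and 100 counts. Of the TPM of these forms and Fst-201, Fst-202 held 61.2% and 54.4%. By the kallisto-format tables it held 47.0% and 46.7%, so which form was the higher one depends on the table. Fst-205 is annotated with 1113 bases against 2833 for Fst-202, and TPM divides by that length. Fst-201, whose coding part differs from that of Fst-205 by 3 bases at the start of the fifth exon and which is annotated with 1851 bases in all, was at 0 in the RSEM-format tables and at kallisto-format TPMs of 1.33 and 0. Fst-203, annotated as a retained intron, held 18.7% and 12.1% of Fst TPM in the RSEM-format tables and 0 in the kallisto-format ones.

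**Figure D4:**
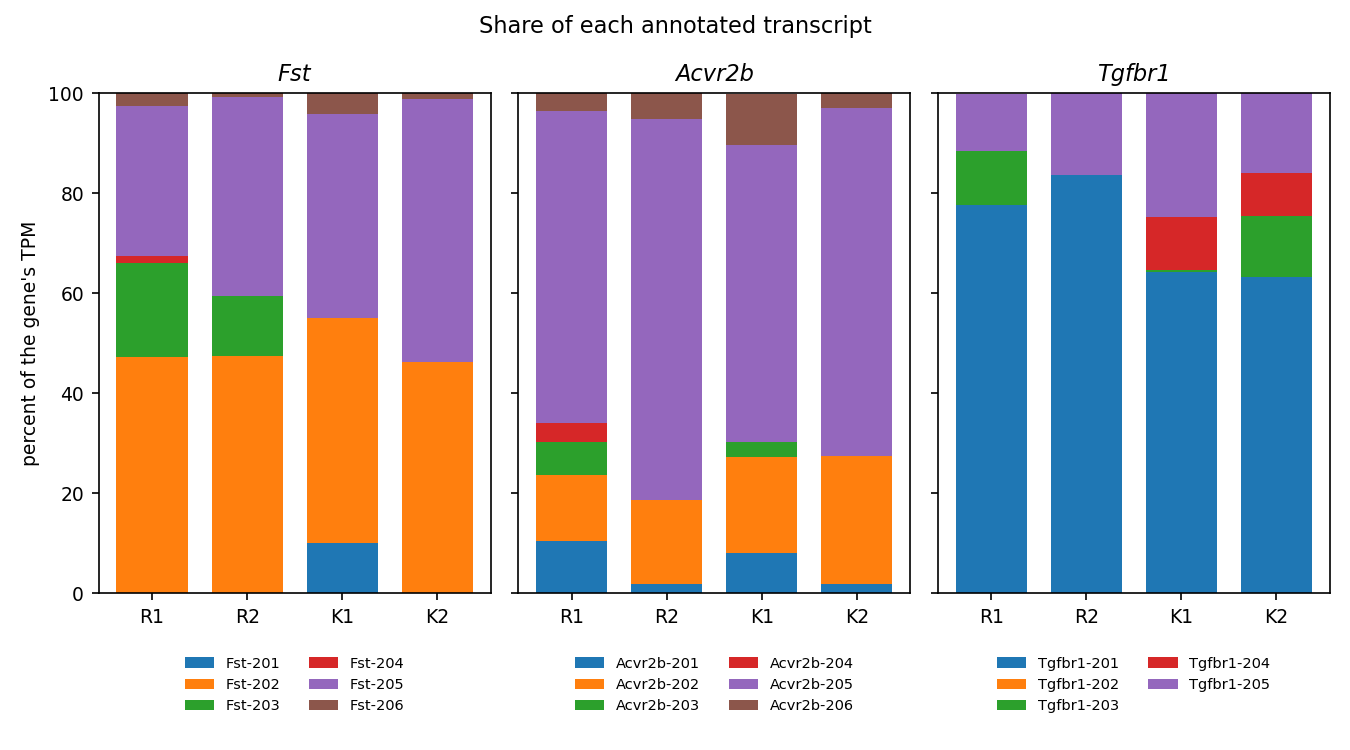
Percent of the gene's TPM held by each annotated transcript of Fst, Acvr2b and Tgfbr1, for RSEM-format replicates 1 and 2 (R1, R2) and kallisto-format replicates 1 and 2 (K1, K2). Acvr2b-205 and Tgfbr1-201 led in all 4 bars, while Fst-202 led in R1, R2 and K1 and Fst-205 in K2.

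Between the libraries these genes differed little, as did most genes tested. A mean of 100 or more counts was reached by 9 of the 10 genes. Of these, 0 differed 2-fold between replicates, where 1.02% of 11759 genes did. At 1.5-fold the count was 0, against 4.45%, and with 9 genes both counts are near the background. Their log2 ratios of replicate 2 over replicate 1, scaled by edgeR's TMM, ran from -0.18 for Tgfbr1 to 0.29 for Mstn, with a median of 0.01 against 0.08 for all genes tested. Of the 9, 4 were below 0, where 37.3% of genes were. Scaling by spike-in totals lowered every ratio by 0.39, so that all 9 were below 0, Mstn at -0.10 and Tgfbr1 at -0.58, where 90.2% of all genes tested were below 0. Library totals lowered every ratio by 0.24, and 8 were below 0, where 73.9% of genes were. As deposited, TPM was lower in replicate 2 for 9 of the 10 genes, Mstn being the exception. The share of all genes lower as deposited TPM was not measured, so that count only describes these genes. The direction of these small differences therefore depends on the scaling. There was 1 library on each side, so these are descriptions of the libraries.

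Deposited intervals of TPM did not overlap between the libraries for 3 of the 9 genes, Acvr2a, Acvr2b and Tgfbr1, each higher in replicate 1. The background was 31.8% of genes without overlap and 26.9% with replicate 1 the higher. For Tgfbr1 the intervals were 12.5 to 14.3 and 8.78 to 10.3, for Acvr2a 10.6 to 12.1 and 8.82 to 9.96, and for Acvr2b 5.69 to 7.59 and 4.33 to 5.68, the last pair almost touching. The intervals cover the counting and assignment of reads within a library and not the spread between animals.

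**Figure D5:**
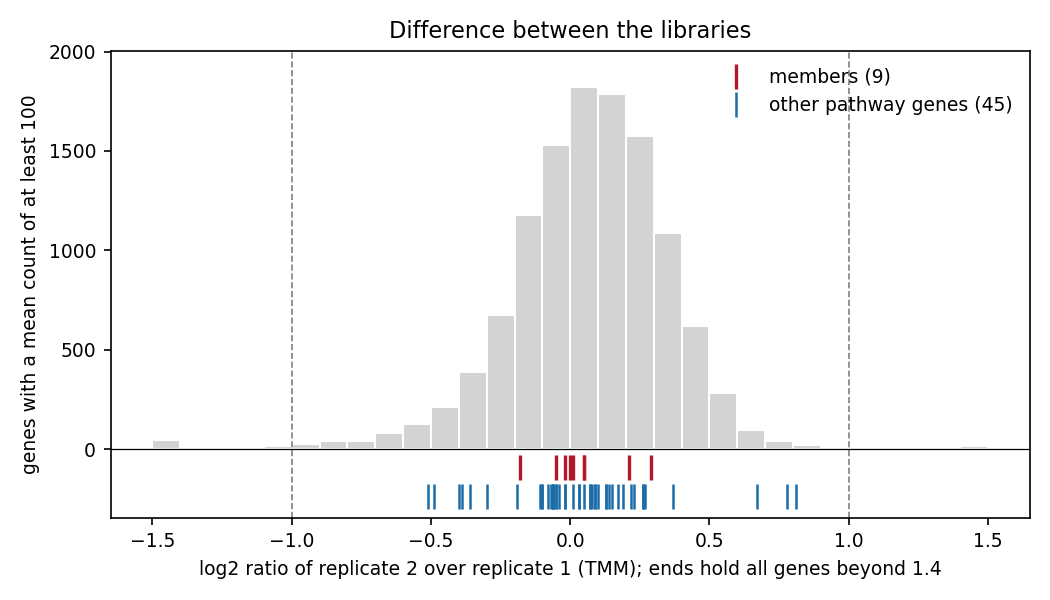
Histogram of the log2 ratio of replicate 2 over replicate 1 (TMM) for the 11759 genes that averaged 100 counts or more, with red ticks for 9 of the 10 genes and blue ticks for the 45 other pathway genes; dashed lines mark 2-fold. All ticks lie between the dashed lines, the red ones from -0.18 to 0.29.

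Among the 45 other pathway genes that averaged 100 counts or more, 0 passed 2-fold, where 1.02% of genes did, and 3 passed 1.5-fold, where 4.45% did; both counts are near the background. These 3, named after their values were seen, were Fbxo32 and Trim63, which encode the ubiquitin ligases atrogin-1 and MuRF1 of muscle atrophy, and Ccn2, a matricellular target of TGF-beta signalling. Fbxo32 stood at TPMs of 5.62 and 8.12 (log2 ratio 0.81), Trim63 at 34.8 and 49.3 (0.78) and Ccn2 at 15.3 and 21 (0.67). All were higher in replicate 2; with spike-in totals their ratios were 0.42, 0.39 and 0.28. Cdkn1a, a cell cycle inhibitor that myostatin can induce, went the other way at 20.5 and 12.9 (-0.39). Foxo1 and Foxo3, which drive the ubiquitin ligase genes, had log2 ratios of 0.05 and 0.19. Myofibre markers other than Ttn, and Acta2, the leading smooth muscle marker, were also higher in replicate 2, as given next.

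Cell type markers moved between the same libraries. All 4 myofibre markers (Acta1, Ckm, Mylpf and Ttn) were detected and, under TMM, higher in replicate 2, at log2 ratios of 0.18 to 0.60. The lowest of these, Ttn, was lower in replicate 2 as deposited TPM (2129 and 1992), with spike-in totals (-0.21) and with library totals (-0.06). The 5 bone and cartilage markers, led by Spp1, had log2 ratios of -11.85 to -5.68, and the 3 granulocyte markers, led by S100a9, of -8.73 to -5.59; 0 of either list was detected in both libraries. All 4 macrophage markers were detected and summed to 49.6 and 33.1, led by Lyz2. All 4 fibro-adipogenic ones summed to 3846 and 2155; the fall was that of Col1a1, from 3542 to 1887 (log2 ratio -0.63), while Pdgfra, Ly6a and Dcn had log2 ratios of 0.00, -0.05 and 0.13. The 3 adipocyte markers, 2 of them detected, summed to 13.3 and 5.34, led by Adipoq. Smooth muscle and pericyte markers, all 3 detected, summed to 332 and 408; Acta2 stood at TPMs of 229 and 314, while Rgs5 stood at 92.3 and 85.6 and Myh11 at 10.6 and 8.79. The 4 satellite cell markers, led by Cdh15, summed to 26.4 and 21.4. Under TMM, Cdh15 and Pax7 had log2 ratios of -0.14 and -0.09, and Myf5 and Calcr of 0.37 and 0.28. Markers of tendon and endothelial cells, led by Fmod and Cdh5, were all detected and lay within a log2 ratio of 0.05 to 0.12. Of 3 cardiac markers only Myh6 was detected, and of 3 neuronal ones Uchl1, the highest, and Stmn2; Myl7 of atrial muscle and Chat of motor neurons were at 0 expected counts. The part of these cell types in the ratios above was not tested.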

How the data were processed

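The files hold 2 total RNA libraries with 35666448 and 39650328 expected counts over named genes. The authors deposited, per the file headers, gene and transcript tables in the column layout of RSEM and transcript tables in that of kallisto; which tools and versions made them is not given in the sources used here. Build mm10 and GENCODE M21 come from the deposited text files. The expected counts and estimated counts in the deposited tables divide shared reads by a model. TPM, in the tables as deposited, is scaled over every row, spike-ins and noncoding RNAs included, so nuclear protein coding genes held 45.5% and 46.4% of TPM but 75.6% and 75.5% of kallisto-format TPM. The percent of a gene held by a transcript and the bounds of TPM, a signal on the TPM scale, are columns of the deposited tables; the bounds' level is not stated. Length minus effective length is 99 in the RSEM-format tables and 343 and 329 in the kallisto-format ones. Alleles were not separated in the tables, and the effect of CAST/EiJ alleles on mapping was not tested.

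Spike-ins took 0.720% and 0.798% of counts, and rows that name no gene 1.38e-05% and 5.00e-06%; both were left out. The chi-square per degree of freedom between the libraries was 48.6 over 16781 genes, far above sampling noise. Expected counts were rounded, and ratios between libraries are differences of log2 CPM from edgeR 4.0.16 (TMM scaling, prior count 0.5) under R 4.3.3. That step was tested on simulated data with 200 changed genes and a coefficient of variation of 0.15. The 2-fold limit was passed by 53% of 2-fold changes, 100% of 4-fold changes and 0.286% of unchanged genes. A change of about 2-fold can therefore be missed. The coefficient of variation estimated from the data was higher than the one set, at 0.191. DESeq2 1.42.0 size factors were an alternative. Tables were joined in Python 3.11.15. A ratio between genes was called if its mean exceeded 1 SD and its sign did not differ between libraries. Named genes were the members, the leading 3 of each role, any gene past 2-fold at a mean count of 100, genes of the fixed pairs, the leading marker of each list, and transcripts with at least 10% of a gene; other list genes were named after their values were seen. Likeness of pattern cannot be measured over 2 libraries, so no gene is named for it. The members and lists were chosen with earlier results of these data known. Some list genes and sequences are not reported here.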

Additional observations from a re-analysis of the deposited data

How the results depend on the processing

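No member or other pathway gene passed 2-fold at a mean count of 100 under TMM, DESeq2 size factors, library totals, spike-in totals, kallisto-format counts or a prior count of 2. Among the other pathway genes 5 passed with a mean count of at least 10, 9 with no filter and 3 at a limit of 1.5-fold. At 1.5-fold and a mean count of 100, 4.45% of all genes tested passed. The share of all genes passing at the lower count limits was not measured, so the counts of 5 and 9 only describe these genes. The 5 at a mean count of at least 10 were Acvr1c at 61 and 16 counts, Grem1 at 32 and 4, Wfikkn1 at 29 and 9, Smad9 at 37 and 17 and Gdf1 at 82.9 and 28.4. Members past the fold limit stayed at 0 in all 8 alternatives, which include a limit of 1.5-fold and lower count filters. Members detected were 10 at TPM 0.5, 6 at TPM 5 and 9 in the other alternatives, and other pathway genes detected ranged from 36 to 50. The sign of Smad3 over Smad4 turned from -0.38 to 0.29 with expected counts, by construction, since counts are not divided by length; no other called pair turned. Kallisto-format TPM moved the level of all 10 members by more than 1 SD and kept their order. Relative to nuclear protein coding genes, 0 of the 9 detected members differed 2-fold between the kinds of table, against 4.76% of detected genes. With 2 libraries, leaving out 1 always moves a mean by less than 1 SD, so it says nothing on stability, and no ratio between libraries can be formed without either. No paired analysis was possible because the series has 1 group. Fstl3, Inhbb, Acvr1c and the transcript forms with under 100 counts are limited by depth.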
